A study of Mus musculus with 15 samples.

Results

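Interferon response genes are the genes that a cell switches on when type I or type II interferon binds its receptor. The set described here was a fixed list of 34 mouse genes, matched by gene symbol to the probe sets of the array. Of these, 31 genes were measured, on 32 probe sets that carry 1 gene symbol, among 19938 genes in all. Gbp2 and Isg15 lay only on probe sets shared with another symbol (Gbp2b and Gm9706) and Ifi44 had no probe set named here, so these 3 genes were not analysed here. The members were chosen from knowledge of the pathway, with earlier results of these data known.

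The samples were large sensory neurons of mouse dorsal root ganglia, the clusters of nerve cell bodies beside the spinal cord, at lumbar levels 2 to 5. All mice were C57BL/6 animals with a green fluorescent reporter driven by the CGRP promoter (CGRP is calcitonin gene-related peptide, made by many pain-sensing neurons), and all had a fluorescent tracer (wheat germ agglutinin) placed in the gastrocnemius muscle or the saphenous nerve 5 days before the cells were taken. Neurons over 26.9 um were sorted on tracer and reporter. Skin neurons were CGRP-positive and came from mice with complete Freund's adjuvant (CFA, an oil emulsion of killed mycobacteria used to inflame tissue) in the paw or with saline in the paw. Muscle neurons were CGRP-negative and came from mice with CFA, acid or saline in the muscle. The groups are called CFA paw, saline paw, CFA muscle, acid muscle and saline muscle, with 3 biological replicates each and 15 arrays in all; the saline groups served as controls. The labels used here give neither the age and sex of the mice, the number pooled per sample, the dose of CFA or acid, nor the time after injection. Paw and muscle groups differ in target tissue, CGRP status, tracer site and injection site together, and these cannot be told apart.

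As background, type I interferons bind a receptor of the subunits Ifnar1 and Ifnar2, and type II interferon one of Ifngr1 and Ifngr2. Kinases at the receptor activate Stat2, which joins Irf9 in a complex that binds the interferon-stimulated response element in target promoters. The induced genes make sensors of viral RNA, proteins that block translation or degrade RNA, membrane-remodelling GTPases, antigen-processing proteins and chemokines. Sensory neurons carry interferon receptors, and interferons can change the excitability of these cells.

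The response element is known by a core of paired GAAA or TTTC blocks, so promoter windows of 300 bases (250 before to 50 after the annotated start, RefSeq, GRCm38.p6) were searched for TTTC, any 2 bases and TTTC again, and for its reverse complement (GAAA, any 2 bases and GAAA). Of the 31 measured members, 22 had a window, and 12 of them held a match: Bst2, Cxcl10, Ddx58, Eif2ak2, Gbp3, Gbp7, Ifih1, Ifit1, Ifit3, Oas1a, Rsad2 and Stat2. With the unmeasured members included, 14 of 29 windows (48.3%) held one, against 1131 of 32851 windows over all genes (3.44%). Neighbouring members are not independent here, since the windows of Psmb9 and Tap1, which lie back to back on chromosome 17, overlap. A match is a description of these letters and no measure of binding. Oasl2, Rtp4, Xaf1 and Irf9 are described below; Oasl2, Xaf1 and Irf9 had no match in their windows, and Rtp4 is not in the table.

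The 4 promoters shown belong to matching members that were called, or had one of the 3 smallest p of the set, in any of the comparisons below other than the one added after seeing the data, taken in order of p. Cxcl10 and Eif2ak2, which hold a match, entered only through that added comparison. Ifit1, with 2 matches, met the rule as well, but had a larger p than these 4 and was left out by a limit of 4 windows. The windows have every matched base in capitals and each window given 5′ to 3′ on the strand of its gene. Ddx58 is at chr4:40239776-40240075 (minus strand), with a match that begins 2 bases after the start. Gbp7 is at chr3:142530086-142530385 (plus strand), with a match 53 bases before the start. Stat2 is at chr10:128270248-128270547 (plus strand), with a match 222 bases before it. Bst2 is at chr8:71537423-71537722 (minus strand), with 2 overlapping matches of the GAAA form that begin 130 and 124 bases before it.
Ddx58: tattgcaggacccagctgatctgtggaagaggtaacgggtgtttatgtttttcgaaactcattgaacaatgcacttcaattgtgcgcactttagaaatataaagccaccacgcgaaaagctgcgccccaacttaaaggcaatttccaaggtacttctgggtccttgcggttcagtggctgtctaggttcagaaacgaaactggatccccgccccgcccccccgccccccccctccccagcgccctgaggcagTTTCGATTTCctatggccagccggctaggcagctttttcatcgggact
Gbp7: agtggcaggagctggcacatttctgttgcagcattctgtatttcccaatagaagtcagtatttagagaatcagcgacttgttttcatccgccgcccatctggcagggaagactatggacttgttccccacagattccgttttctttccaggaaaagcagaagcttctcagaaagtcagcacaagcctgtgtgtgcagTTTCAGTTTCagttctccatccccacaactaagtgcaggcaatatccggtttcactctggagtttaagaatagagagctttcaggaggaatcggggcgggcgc
Stat2: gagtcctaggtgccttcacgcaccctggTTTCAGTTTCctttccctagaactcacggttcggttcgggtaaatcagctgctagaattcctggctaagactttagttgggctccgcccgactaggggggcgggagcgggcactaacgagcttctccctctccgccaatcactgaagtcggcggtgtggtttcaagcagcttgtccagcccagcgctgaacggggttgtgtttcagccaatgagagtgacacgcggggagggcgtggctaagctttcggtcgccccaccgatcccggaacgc
Bst2: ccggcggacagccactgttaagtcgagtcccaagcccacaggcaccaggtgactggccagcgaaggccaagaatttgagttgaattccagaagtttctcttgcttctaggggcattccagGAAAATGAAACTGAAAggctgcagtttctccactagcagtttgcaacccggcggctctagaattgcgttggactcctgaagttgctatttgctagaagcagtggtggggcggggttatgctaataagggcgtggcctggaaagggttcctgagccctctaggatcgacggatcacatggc

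Levels are given as the authors' log2 values, and one below 2.44 was taken as dim, the 95th percentile of 1194 olfactory and vomeronasal receptor genes, which these neurons are not known to use. By this limit 23 members had a group mean above it in all 5 groups. Oas2 was above it in 4 groups. The other 7 members (Dhx58, Ifit2, Oas1a, Mx1, Mx2, Gbp4 and Ifi27l2a) were under it in every group, so a difference in one of them is a difference between dim signals. Over all genes, 62.2% were above the limit in every group and 27.9% under it in every group.

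Before the comparisons, 1 array has to be named. Saline paw replicate 1 stood apart from the other paw arrays: the SD of its log2 values over genes was 1.42, against 1.66 to 1.80 in the other 5 paw arrays and 1.28 to 1.55 in the muscle arrays. It held the lowest value of its group for 17 of 31 members (54.8%) and the highest for 9 (29.0%), where over all genes it was the lowest for 39.7% and the highest for 49.9%. As a check of the labelled cell type, the synaptic gene Snap25 had a mean of 11.05 in CFA paw, 10.92 in saline paw, 9.29 in CFA muscle, 9.45 in acid muscle and 9.46 in saline muscle, while Ptprc, carried by all white blood cells, had group means of at most 2.36, under the dim limit. The satellite glia gene Fabp7 was high as well, at 8.49 to 10.41 over the 15 arrays, where Snap25 ran from 8.73 to 11.28. The myelin gene Mbp had group means of 4.71 to 6.03. Those of the macrophage gene Csf1r were 2.73 to 2.96, above the dim limit in every group. The check thus does not show samples free of glia or other cells. The gene behind the reporter was not analysed here. Differences were tested with limma over all 15 arrays and 19938 genes, two-sided, with Benjamini-Hochberg adjustment and a threshold of 0.05 on the adjusted p.

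The first question is whether inflammation of the paw changes these genes in the skin neurons. None of the 31 members passed the test between CFA paw and saline paw, and none of all genes did (0%). The smallest adjusted p of a member was 1.00. At an unadjusted p under 0.05 there were 2 members, Oasl2 and Xaf1, beside 241 of all genes (1.21%). The log2 difference was above 0 for 23 of 31 members and 47.1% of all genes, and the median was 0.16 for the members and -0.01 for all genes. The arrays of the groups did not overlap for 3 members, all higher in CFA paw, against 1.73% of all genes higher (2.99% lower). These were Ifi35 (0.20), which forms complexes with other induced proteins, and the dim Gbp4 (0.21) and Dhx58 (0.23).

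Oasl2, a member of the oligoadenylate synthetase family that acts against viral RNA, had log2 levels of 7.15, 6.65 and 6.77 in CFA paw, against 5.54, 6.54 and 6.78 in saline paw. The groups overlapped, and the low saline value was that of replicate 1. The difference was 0.57 (SE 0.25, 95% interval 0.04 to 1.10, unadjusted p = 0.0359 by limma), and 0.20 without that array. Xaf1, an antagonist of an inhibitor of cell death, had levels of 3.97, 2.72 and 3.02 in CFA paw, against 2.65, 2.72 and 2.61 in saline paw. Here the spread lay in CFA paw replicate 1, and the difference of 0.58 (SE 0.26, unadjusted p = 0.0455 by limma) was 0.21 without it. Ifit2, of the family that binds foreign RNA ends, had the next smallest p but was dim, at 1.98, 1.92 and 2.35 in CFA paw, against 1.66, 1.76 and 2.01 in saline paw.

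Ifit1, which binds RNA that lacks the cap methylation of the host, had levels of 4.81, 4.20 and 4.28 in CFA paw, against 2.97, 4.50 and 4.15 in saline paw, with a difference of 0.56 (SE 0.39). The difference was 0.11 without saline paw replicate 1. At the other end, Oas2 (-0.19), Ifi27l2a (-0.15) and Usp18, the protease that removes Isg15 from proteins (-0.10), had the lowest differences. The members' median was 0.07 without saline paw replicate 1, with 20 of 31 members above 0. The sensory neuron markers differed in the same direction, above 0 for 15 of 16 with a median of 0.17, with none past the test; their part in the members' values was not tested.

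**Figure D1:**
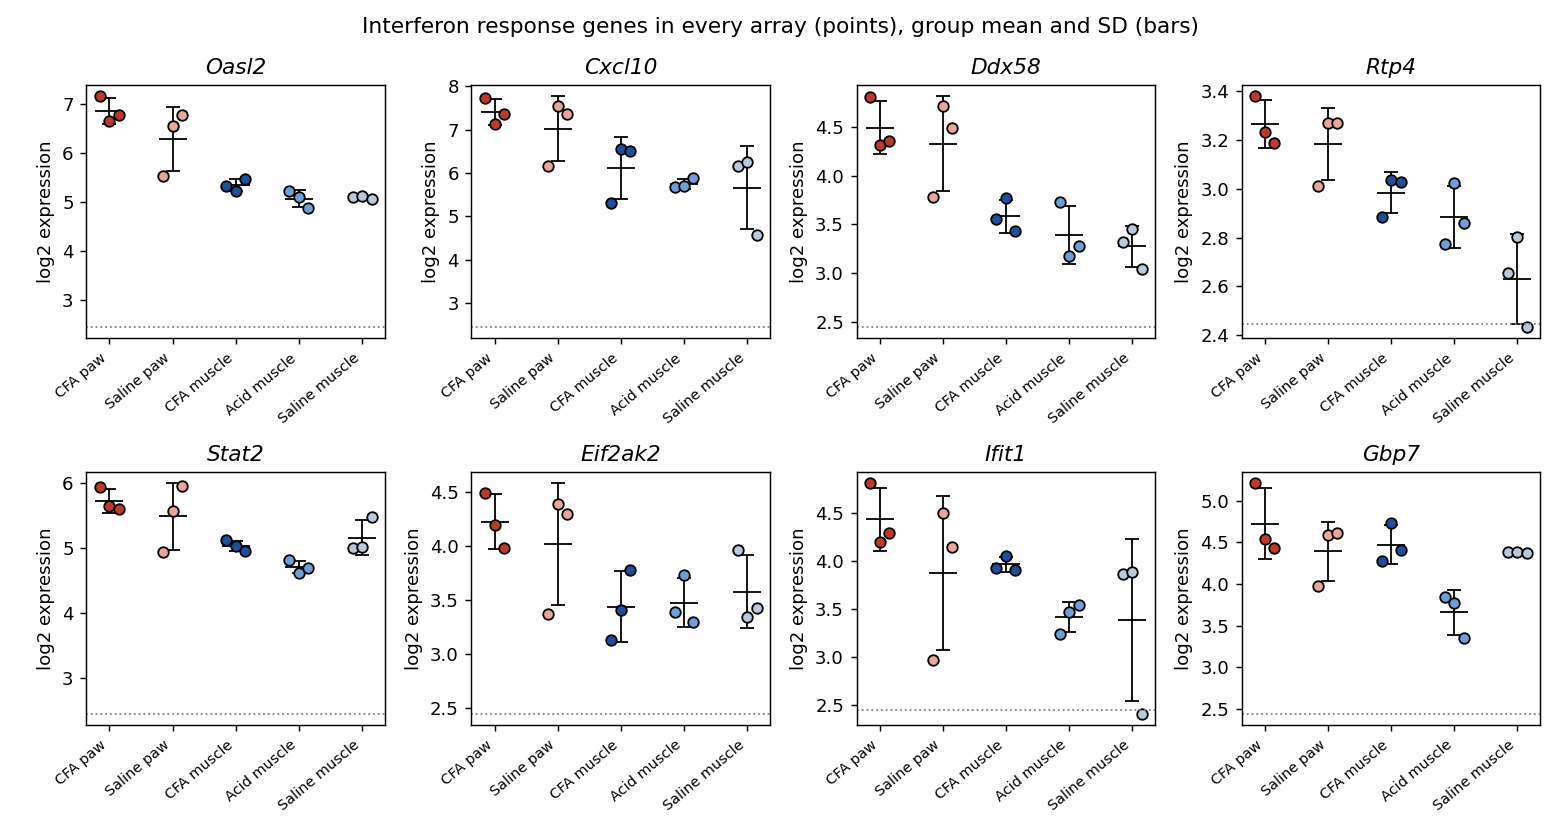
Log2 expression of 8 interferon response genes in each of the 15 arrays (points), with the group mean (horizontal bar) and SD (error bars, n = 3) and the dim limit of 2.44 (dotted line). For Oasl2 and Ddx58 all 6 paw arrays lie above all 6 CFA and saline muscle arrays, and in each of these panels saline paw replicate 1 is the lowest paw array.

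In the muscle neurons the same question was asked of CFA and of acid. None of 31 members and none of all genes (0%) passed the test between CFA muscle and saline muscle. At an unadjusted p under 0.05 there was 1 member, Rtp4, beside 518 of all genes (2.6%). The members' median difference was 0.06, against -0.01 for all genes, and 19 of 31 members were above 0 (47.1% of all genes). Rtp4, a Golgi chaperone that helps opioid receptors reach the cell surface, had levels of 2.89, 3.04 and 3.03 in CFA muscle, against 2.66, 2.80 and 2.43 in saline muscle. The arrays of the groups did not overlap, and the difference was 0.35 (SE 0.13, unadjusted p = 0.0191 by limma).

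Ifit1 had levels of 3.93, 4.05 and 3.91 in CFA muscle, against 3.86, 3.88 and 2.41 in saline muscle. These groups did not overlap either, but the difference of 0.58 (SE 0.39) was 0.09 without saline muscle replicate 3. Cxcl10, a chemokine that draws T cells through the receptor Cxcr3, differed by 0.46 (SE 0.45), and by -0.09 without the same array. In all, 3 members lay wholly higher in CFA muscle (every array above every saline array), Oasl2 (0.25) with the 2 above, against 3.63% of all genes, and 1, the dim Gbp4, wholly lower, against 4.1%. Bst2, or tetherin, which holds budding virus at the membrane, had 3.76, 3.84 and 3.61 in CFA muscle, against 3.78, 4.08 and 4.46 in saline muscle, a difference of -0.37 (SE 0.23). The dim genes Gbp4 (-0.19) and Dhx58 (-0.17) were next lowest.

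Acid gave no call either: 0 of 31 members and 0% of all genes passed the test between acid muscle and saline muscle. There was 1 member, Gbp7, at an unadjusted p under 0.05, beside 568 of all genes (2.85%). The members' median was -0.02, against 0.02 for all genes, and 14 of 31 members were above 0 (53.7% of all genes). Gbp7, a guanylate-binding protein of the family that attacks the vacuoles of intracellular microbes, had levels of 3.85, 3.77 and 3.35 in acid muscle, against 4.39, 4.39 and 4.38 in saline muscle. All acid arrays lay below all saline arrays. The difference was -0.73 (SE 0.22, 95% interval -1.20 to -0.25, unadjusted p = 0.00568 by limma), a level 1.65-fold lower in acid muscle, with an adjusted p of 1.00.

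Stat2 also lay wholly lower after acid, at 4.81, 4.62 and 4.68 in acid muscle, against 4.99, 5.00 and 5.47 in saline muscle (difference -0.45, SE 0.21). With the dim Mx1 (-0.11), 3 members were wholly lower, against 2.94% of all genes, and 0 wholly higher, against 3.98%. Parp14, an ADP-ribosyltransferase, had a difference of -0.27. The highest differences were those of Ifit3 and Ifi27l2a (0.28 each), Rsad2 or viperin, which makes a chain-terminating nucleotide (0.26), and Rtp4 (0.25, SE 0.13). Rtp4 had levels of 2.77, 3.02 and 2.86 in acid muscle, overlapping the saline muscle values above. All 5 measured GTPases of the list were below 0, from -0.73 for Gbp7 to -0.05 for Gbp3. Of these, Mx1, Mx2 and Gbp4 were dim, and only Gbp7 had an unadjusted p under 0.05 by limma.

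Between the muscle treatments, none of 31 members and none of all genes (0%) passed the test of CFA muscle against acid muscle. At an unadjusted p under 0.05 there were 2 members, Gbp7 and Irf9, beside 626 of all genes (3.14%), and the median was 0.10 for the members and -0.03 for all genes. Of the 31 members 19 were above 0 (43.9% of all genes). Gbp7 had levels of 4.28, 4.73 and 4.41 in CFA muscle, against the acid values above, and the difference of 0.81 (SE 0.22, unadjusted p = 0.00265 by limma) came without overlap of the arrays. This comparison shares its arrays with the previous ones, which also share the saline muscle arrays. Irf9, the DNA-binding partner of Stat2, had levels of 4.14, 3.82 and 4.04 in CFA muscle, against 3.81, 3.73 and 3.53 in acid muscle (difference 0.31, SE 0.14). The dim gene Mx2 had 2.02, 2.02 and 2.27 in CFA muscle, against 1.69, 2.02 and 1.60 in acid muscle.

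Ifit1 (0.54, SE 0.39) and Cxcl10 (0.37, SE 0.45) followed among the highest differences, and Dhx58 (-0.30), Ifit3 (-0.28) and Bst2 (-0.21) were lowest. In all, 6 members lay wholly higher in CFA muscle than in acid muscle, against 2.92% of all genes, and 0 wholly lower, against 5.23%.

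Whether CFA acted differently at the injection sites was tested as the CFA effect in muscle minus the CFA effect in paw. None of 31 members and none of all genes (0%) passed, and 0 members had an unadjusted p under 0.05, beside 325 of all genes (1.63%). The value was above 0 for 14 of 31 members (49.8% of all genes). Bst2 had the smallest p, with levels of 4.21, 3.83 and 3.77 in CFA paw, 3.47, 3.63 and 3.83 in saline paw and the muscle values above (-0.66, SE 0.32). Gbp4 (-0.40) and Ifit2 (-0.38) followed, both dim. Gbp4 had 1.84, 1.87 and 1.79 in CFA muscle, against 2.04, 1.96 and 2.06 in saline muscle, and 1.94, 1.72 and 1.77 in CFA paw, against 1.54, 1.65 and 1.62 in saline paw. The CFA arrays of Gbp4 lay below the saline arrays in muscle and above them in paw. Ifit2 had 1.98, 2.23 and 2.15 in CFA muscle, against 2.39, 1.98 and 2.31 in saline muscle, with the paw values above, and its groups overlapped at both sites. Dhx58 (-0.40) was among the lowest, and Oas2 (0.36), Ifi27l2a (0.32) and Rtp4 (0.27) were the highest.

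**Figure D2:**
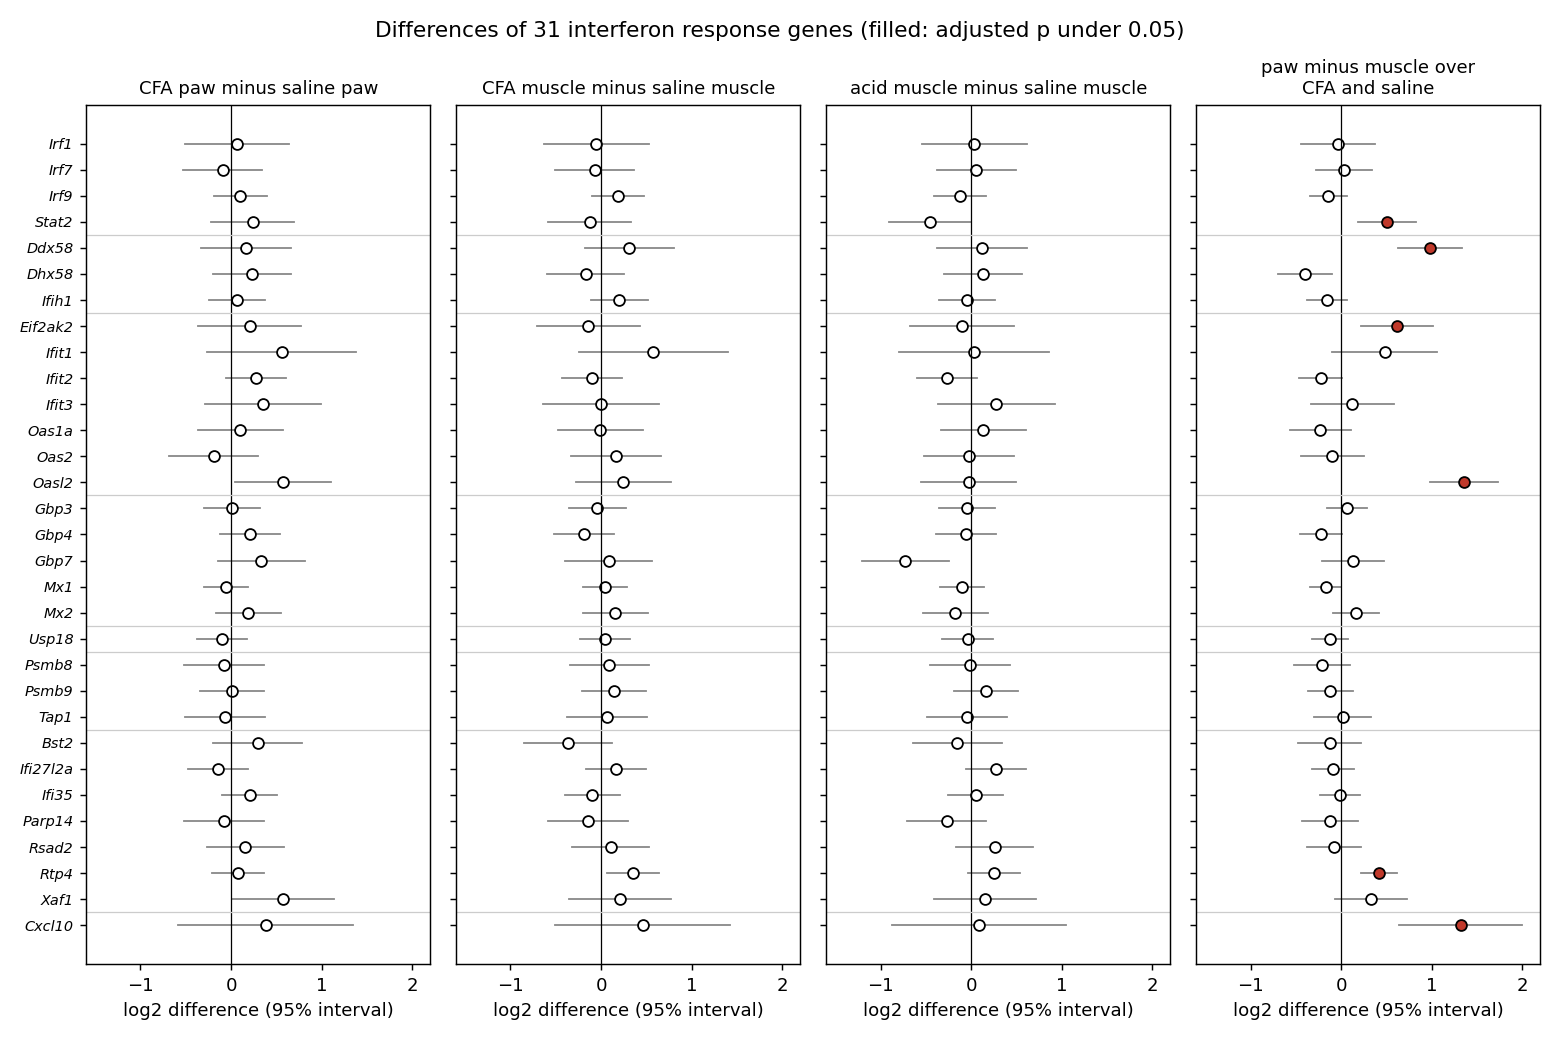
Log2 differences (circles) with 95% intervals (lines) of the 31 measured members, grouped by role from transcription factors at the top to the chemokine at the bottom, in 4 comparisons. Filled circles passed an adjusted p of 0.05: none in the 3 treatment comparisons, and Stat2, Ddx58, Eif2ak2, Oasl2, Rtp4 and Cxcl10 in paw minus muscle.

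Calls came only between paw and muscle neurons. After saline, 3 of 31 members (9.68%) were higher in saline paw than in saline muscle and 0 were lower, against 1.87% of all genes higher, 0.171% lower and 2.04% in either direction. At an unadjusted p under 0.05 there were 7 members (4 higher, 3 lower) and 16.9% of all genes. The members' median was -0.05 and that of all genes -0.02, with 15 of 31 members above 0 (47.7% of all genes). Oasl2 had the saline paw levels given above, against 5.11, 5.12 and 5.06 in saline muscle, and was 2.28-fold higher (log2 difference 1.19, SE 0.25, limma adjusted p = 0.0260). Every saline paw array lay above every saline muscle array, replicate 1 by the least.

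Ddx58 encodes RIG-I, the sensor of short viral RNA with a 5′ triphosphate. It had levels of 3.78, 4.71 and 4.49 in saline paw, against 3.32, 3.45 and 3.04 in saline muscle. It was 2.08-fold higher (1.06, SE 0.23, limma adjusted p = 0.0331). Rtp4 had levels of 3.01, 3.27 and 3.27 in saline paw, against 2.66, 2.80 and 2.43 in saline muscle, and was 1.47-fold higher (0.55, SE 0.13, limma adjusted p = 0.0488). Neither gene's groups overlapped. The Rtp4 call was near the threshold, with adjusted p of 0.055 once dim genes were left out and 0.25 without saline paw replicate 2, and it was lost without any single array other than saline paw replicate 1 or acid muscle replicate 2. Oasl2, Ddx58 and Rtp4 were the 3 members that lay wholly higher (8.11% of all genes), and 3 members lay wholly lower in saline paw (7.06% of all genes): Dhx58, Gbp4 and Mx1, all dim.

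Cxcl10 had the largest difference, with levels of 6.17, 7.54 and 7.36 in saline paw, against 6.17, 6.25 and 4.57 in saline muscle. The groups overlapped, and the difference of 1.36 (SE 0.45) did not pass (limma adjusted p = 0.139). At the low end were Dhx58 (-0.60, SE 0.20, limma adjusted p = 0.141), which encodes LGP2, a relative of RIG-I without a signalling domain, Bst2 (-0.46) and Gbp4 (-0.42). Without saline paw replicate 1, Cxcl10 (1.79), Eif2ak2 and Stat2 passed as well, and Oasl2 was at 1.56. That made 6 of 31 members in all, a share near the 19.2% of all genes. Without saline paw replicate 2 or 3, or any of the saline muscle replicates, 0 members passed.

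After CFA, 2 of 31 members (6.45%) were higher in CFA paw than in CFA muscle and 0 lower. Of all genes 5.75% were higher, 0.667% lower and 6.41% called in either direction, so the share of members called was near that of all genes. At an unadjusted p under 0.05 there were 5 members and 20.8% of all genes, and 16 of 31 members were above 0 (43.8% of all genes). Oasl2 had the CFA paw levels given above, against 5.33, 5.23 and 5.47 in CFA muscle, and was 2.86-fold higher (1.51, SE 0.25, limma adjusted p = 0.00295). Ddx58 had 4.81, 4.32 and 4.36 in CFA paw, against 3.56, 3.77 and 3.43 in CFA muscle, and was 1.88-fold higher (0.91, SE 0.23, limma adjusted p = 0.0301). Oasl2 passed without any single array, while the Ddx58 call was lost when any of the CFA paw or CFA muscle arrays was left out, with adjusted p from 0.0531 to 0.145.

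Stat2 had levels of 5.93, 5.64 and 5.59 in CFA paw, against 5.11, 5.03 and 4.95 in CFA muscle (0.69, SE 0.21, limma adjusted p = 0.0709). Eif2ak2 encodes PKR, the kinase that halts translation on double-stranded RNA. It had 4.50, 4.20 and 3.98 in CFA paw, against 3.13, 3.40 and 3.78 in CFA muscle (0.79, SE 0.27, limma adjusted p = 0.0973). Cxcl10 had 7.72, 7.13 and 7.36 in CFA paw, against 5.30, 6.55 and 6.52 in CFA muscle (1.28, SE 0.45, limma adjusted p = 0.111). All 3 genes lay wholly higher in CFA paw without passing the test. Rtp4 did too, with 3.38, 3.23 and 3.19 in CFA paw, against the CFA muscle values above (0.28, SE 0.13, limma adjusted p = 0.248). In all, 8 members lay wholly higher, against 18.9% of all genes, and 2 wholly lower, against 17.1%. Psmb8, an immunoproteasome subunit (-0.29), Oas2 (-0.28) and Ifi27l2a (-0.25) were lowest.

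These comparisons share no array, and the members' differences ran alike in them: 24 of 31 had the same sign (77.4%), with a Pearson correlation of 0.84 across the members. Over all genes the share was 76.8% and the correlation 0.84, much as in the set. Genes are not independent replicates, and the arrays' spread, described next, is shared by all of them.

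**Figure D3:**
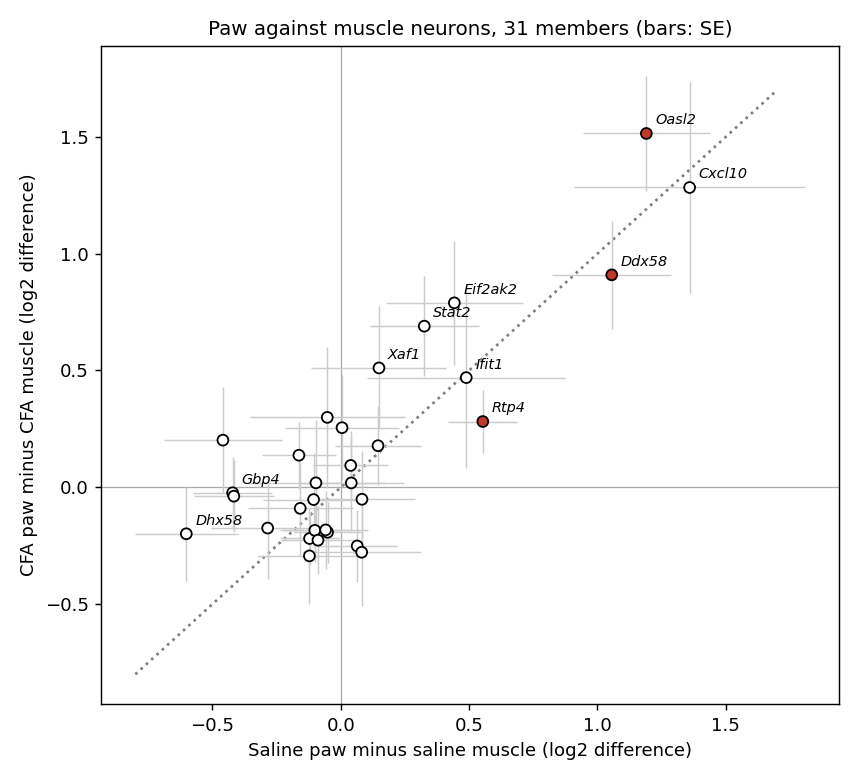
Log2 difference of saline paw minus saline muscle (x axis) against CFA paw minus CFA muscle (y axis) for the 31 measured members, with SE bars; the dotted line marks equal differences. Filled circles (Oasl2, Ddx58, Rtp4) passed the test in at least 1 of the comparisons. All members but Oasl2, Ddx58, Cxcl10, Eif2ak2, Stat2 and Dhx58 lie within 0.6 of 0 on both axes, Rtp4 included.

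A comparison of paw with muscle over the CFA and saline groups, added after seeing the data, used both at once. Here 6 of 31 members (19.4%) were higher in the paw groups and 0 lower, against 11.6% of all genes higher, 3.12% lower and 14.7% in either direction. They were Oasl2 (1.35, SE 0.17), Cxcl10 (1.32, SE 0.32), Ddx58 (0.98, SE 0.16), Eif2ak2 (0.62, SE 0.19), Stat2 (0.51, SE 0.15) and Rtp4 (0.42, SE 0.09), with limma adjusted p from 0.000214 to 0.0410. Eif2ak2 had 3.37, 4.39 and 4.30 in saline paw, against 3.96, 3.34 and 3.42 in saline muscle, so that saline paw replicate 1 lay among the muscle arrays. Stat2 had 4.94, 5.56 and 5.95 in saline paw, where replicate 1 lay below every CFA muscle and saline muscle array. Dhx58 (-0.40), Oas1a (-0.23) and Ifit2 (-0.23), all dim, were lowest. Oasl2 and Ddx58 had arrays wholly higher in paw (4.37% of all genes), and the dim Mx1 wholly lower (1.54%). At an unadjusted p under 0.05 there were 7 members and 30.3% of all genes. The members' median was -0.04, as was that of all genes, and 14 of 31 members were above 0 (44% of all genes).

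By role, the calls over both comparisons were 1 or 2 genes of a group. Of 3 cytosolic RNA sensors, Ddx58 was higher in paw and Dhx58 and Ifih1 were below 0. Of 7 RNA-binding effectors, Oasl2 and Eif2ak2 were called. Of 4 transcription factors, Stat2 was called, and Irf1, Irf7 and Irf9 were between -0.14 and 0.03. None of the 5 GTPases or of the 3 antigen-processing genes was called. Of Irf1's 2 probe sets, the brighter was used.

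Of the neuron markers, 4 of 16 were higher in saline paw than in saline muscle, 11 of 16 in CFA paw than in CFA muscle and 13 of 16 over both, with 0 lower. The summed linear level of these markers ran from 12034 to 13582 in CFA paw and from 7888 to 15241 in saline paw, against 3499 to 5213 in CFA muscle, 3176 to 7763 in acid muscle and 3606 to 6206 in saline muscle. Schwann cell markers were lower in paw for 4 of 10 and endothelial and mural markers for 2 of 15 over both comparisons. Of the satellite glia markers, 1 of 10 was higher in paw over both and 0 lower, with a median of 0.22. In such sorted bulk samples, fewer cells of a type and less RNA per cell cannot be told apart. The part of these shifts in the members' values was not tested.

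Markers of immune cells, which use many of these genes, were mostly dim. Of 18 macrophage and microglia markers, 5 had a mean above the dim limit, and 3 of 13 for neutrophils, 5 of 14 for lymphocytes and 3 of 9 for dendritic cells, where Bst2 is on the list as well. The summed linear level of the macrophage markers was 81.5 to 86.7 in CFA paw and 77.4 to 94.3 in saline paw, against 89.1 to 93.8 in CFA muscle, 89.0 to 102 in acid muscle and 87.1 to 97.3 in saline muscle. None of these lists had a gene called higher in any of the 8 comparisons, and 1 lymphocyte marker was called lower in paw over both comparisons.

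The spread of the array moved with the called members. With each array's SD added to the fit, 0 members passed between saline paw and saline muscle, where Oasl2 was at 0.80 and Ddx58 at 0.63. Under the same covariate only Oasl2 passed between CFA paw and CFA muscle (1.04, limma adjusted p = 0.0464) and over both (0.92, limma adjusted p = 0.0197). Cxcl10 was at 0.36 over both with the covariate, against 1.32 without it. After quantile normalization of the arrays, Oasl2, Ddx58 and Rtp4 still passed over both, and Cxcl10 (0.80), Eif2ak2 (0.53) and Stat2 (0.11) did not. Since the spread differs between paw and muscle arrays, it cannot be told apart from the tissue in these groups.

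**Figure D4:**
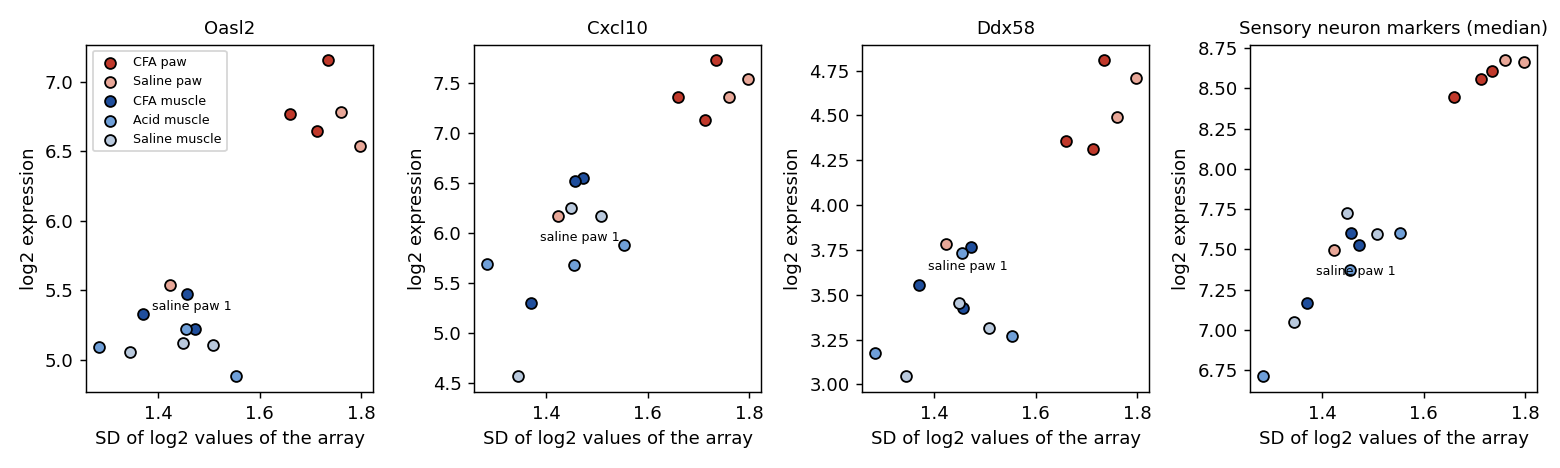
Log2 expression of Oasl2, Cxcl10 and Ddx58 and the median of 16 sensory neuron markers (y axes) against the SD of each array's log2 values over genes (x axes), for 15 arrays coloured by group. Of the paw arrays 5 sit at an SD of 1.66 to 1.80 with the high values, and saline paw replicate 1 sits at 1.42 among the muscle arrays.

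Beyond the members, 96 of 111 listed pathway genes were measured. The interferon genes themselves were mostly dim. Of 6 measured, Ifnl2 was above the limit in every group (means of 4.05 to 4.31), Ifng reached 2.46 in CFA muscle, and the rest, Ifnb1 included, stayed under it. None of the 96 genes passed in any treatment comparison. The smallest unadjusted p for CFA paw against saline paw was that of Tmem173, or STING, the adaptor of DNA sensing (0.65, SE 0.20), then Ifitm3, which blocks viral fusion (0.91, SE 0.40), and Ifnar1 (0.42, SE 0.19). For CFA muscle against saline muscle they were Tapbpl (0.31), the dim Cd74 (-0.43) and Psme1 (-0.49). For acid muscle against saline muscle they were Ifnar1 (-0.46), Cd74 (-0.44) and Nlrc5 (0.47). For CFA muscle against acid muscle they were Rnf213 (-0.43), Zbp1 (-0.41, dim) and Lgals3bp (0.65). For the difference of the CFA effects they were Rnf213 (-0.53), Ifnar1 (-0.60) and Psme1 (-0.68).

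Between paw and muscle, Lgals9, the glycan-binding galectin-9, was the pathway gene with the largest difference. It had levels of 7.27, 8.58 and 8.51 in saline paw, against 6.17, 6.43 and 5.81 in saline muscle (1.98, SE 0.29, limma adjusted p = 0.00457). It had 8.67, 8.27 and 8.76 in CFA paw, against 6.08, 6.02 and 6.48 in CFA muscle (2.37, SE 0.29, limma adjusted p = 0.000410). Every paw array lay above every muscle array. It was the only 1 of 96 genes to pass after saline (1.04%, against 2.04% of all genes). After CFA, Tmem173 (0.84, SE 0.20, limma adjusted p = 0.0193) and Ifnar1 (0.75, SE 0.19, limma adjusted p = 0.0318) passed too, which makes 3 of 96 (3.12%, against 6.41% of all genes). The saline call of Lgals9 was lost when the other groups' arrays were left out of the fit (1.98 as before, limma adjusted p = 0.188). The CFA call of Tmem173 was lost with the SD covariate (0.93, limma adjusted p = 0.0681). The CFA call of Ifnar1 was lost under 5 settings: quantile normalization (0.33, limma adjusted p = 0.424), cyclic loess (0.42, 0.279), the SD covariate (0.57, 0.275), a trend with robust prior (0.0746) and the replicate block (0.0542), the last 2 at the same difference. Leaving out 1 array ended the Tmem173 call for CFA paw replicates 2 and 3 and CFA muscle replicates 1 and 3, and the Ifnar1 call for CFA paw replicates 1 and 3 and CFA muscle replicates 1 and 2.

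Over both comparisons 11 of 96 pathway genes were higher in paw (11.5%) and 2 lower (2.08%). These shares were near the 11.6% and 3.12% of all genes, so they are no result about the pathway. The higher ones besides those named were Pias1, a brake on STAT signalling (1.14), Lgals3bp (1.06), Ifitm2 (0.81), the chemokine Ccl2 (0.62), Ube2l6, which attaches Isg15 (0.53), Tapbp (0.48) and the receptor genes Ifngr1 (1.00) and Ifngr2 (0.53). The lower ones were the dim Ifna4 (-0.41) and the kinase Ikbke (-0.30). Ifnar2 did not pass (0.02, SE 0.21).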

How the data were processed

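The authors deposited 1 log2 value for each probe set and array, already normalized. RMA and Partek are named per the submitters' processing notes, with no version. The log base is not given in the sources used here and was taken from the range of the values. Of 35556 probe sets, 21789 carry 1 gene symbol. The brightest on average was used for each of 19938 genes, and no dim gene was removed. In R 4.3.3, limma 3.58.1 fitted 5 group means to 15 arrays (10 residual degrees of freedom, prior 4.325), with moderated tests, two-sided, adjusted by Benjamini-Hochberg over all genes. The number of arrays limits the precision. A simulated log2 change of 1 was recovered for 68% of the genes given it (saline paw against saline muscle) to 92% (paw against muscle over both). For the difference of CFA effects it was only 23%, where a change of 2 was recovered for 95%. The simulated noise was independent for each gene, with no shift shared over an array and no outlying array. These shares hold for that setting, and not for arrays such as saline paw replicate 1. Comparisons of a single group with another differed there only by the random draw.

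The members, lists and comparisons were chosen with earlier results of these data known. Values in every array are given for members past the threshold in any comparison and the 3 with the smallest p in each; Ifit1 in the paw was chosen after its values were seen. The 3 largest and 3 smallest differences are named too, as are pathway genes past the threshold, or else the 3 with the smallest p. The alternatives were median centring, quantile and cyclic loess normalization, array SD as a covariate, a dim filter, only the arrays compared, array weights, a trend with robust prior, all probe sets averaged, the replicate block and each array left out.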

Additional observations from a re-analysis of the deposited data

How the results depend on the processing

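Counts of members called are given with counts over all genes. Between saline paw and saline muscle the counts were 3 members and 407 genes (373 higher, 34 lower). They were 0 and 213 with median centring, 0 members with the SD covariate (164 genes higher, 206 lower), 0 and 0 with only the arrays compared (their spread alone), 9 members (7 higher, 2 lower) and 7379 genes with array weights, and 1 member with the replicate block. The weights were 7.18 for saline paw replicate 3, 0.959 for replicate 2 and 0.148 for replicate 1. Array-weight results that use saline paw, here and below, thus rest mostly on 1 array of that group. With 1 array left out the counts ran from 0 to 6 members and 51 to 3824 genes, the most without saline paw replicate 1. Quantile normalization gave 254 genes higher and 93 lower, and cyclic loess 317 and 142.

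Between CFA paw and CFA muscle the counts were 2 members and 1279 genes (1146 higher, 133 lower). They were 1 and 763 with quantile normalization, 1 and 444 with the SD covariate (232 higher, 212 lower), 5 and 3209 with only the arrays compared, and 5 and 4054 with array weights; with 1 array left out, 1 to 5 members and 527 to 2588 genes. Over both comparisons the counts were 6 members and 2926 genes (2304 higher, 622 lower). They were 3 and 1753 with quantile normalization, 1 and 866 with the SD covariate (431 higher, 435 lower), 11 and 9139 with array weights, and 1782 to 6499 genes with 1 array left out.

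In the treatment comparisons 0 members passed under every alternative run. Over all genes, CFA paw against saline paw gave 125 calls with array weights, where saline paw replicate 3 had most of its group's weight. With 1 array left out, CFA muscle gave 0 to 8 against saline muscle and 0 to 6 against acid muscle, and the difference of CFA effects 0 to 1. The members' medians moved by less than the spread between replicates of the members' median level in single arrays (SD 0.169). That spread is larger than every median before these alternatives. It is not the error of a difference between groups of 3 arrays. The median for CFA paw against saline paw was 0.16 and ran from 0.065 to 0.20 over the alternatives. For saline paw against saline muscle it was -0.05 and ran from -0.072 to 0.038, so its sign was not fixed.

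Some named members changed sign in comparisons where they had not passed the test. For CFA paw against saline paw, Oas2 was at 0.22 with array weights and 0.14 without saline paw replicate 1, and Usp18 at 0.0096 without it (with 1 array left out, -0.42 to 0.14 and -0.19 to 0.0096). With 1 array left out, Cxcl10 ran from -0.091 (without saline muscle replicate 3) to 0.87 for CFA muscle against saline muscle, and Rsad2 from -0.0057 (without acid muscle replicate 1) to 0.42 for acid muscle against saline muscle. For CFA muscle against acid muscle, Ifit3 ran from -0.60 to 0.017 (without CFA muscle replicate 2) and Bst2 from -0.47 to 0.015 (without acid muscle replicate 2). With the SD covariate, Oas2 was at 0.080 for CFA paw against CFA muscle and Oas1a at 0.0091 over both. The cause was not tested. Whether the replicate numbers pair the samples is not given in the labels used here. Deviations of same-numbered samples from their group means correlated from -0.33 to 0.18 between the CFA and saline groups of a site. Over all pairs of groups examined the range was -0.50 (saline paw with saline muscle) to 0.25 (acid muscle with saline muscle). With 3 arrays per group these values cannot settle the question.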
